A study of Rattus norvegicus with 17 samples.

Results

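The last doubling of dose in a short rat study of isopropylated phenol phosphate (IPP), an aryl phosphate used as a flame retardant and plasticizer, was examined here: 3 rats at 611 mg/kg against 3 rats at 305.5 mg/kg, 6 of the 17 arrays of the series. All rats were male Harlan Sprague-Dawley rats dosed by gavage once a day on 4 days and killed on day 5, and RNA of the left liver lobe was hybridised to 1 Affymetrix array per rat. Rats at 611 mg/kg received 1.35 mmol/kg a day and rats at 305.5 mg/kg received 0.675 mmol/kg a day, both in corn oil. The other arrays came from 3 rats at 153 mg/kg, 3 at 76.5 mg/kg and 5 given corn oil alone; they entered the estimate of spread but not the difference. The treatment protocol rounds 305.5 to 306 mg/kg. No age is given for the rats.

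The question of this comparison was what the highest dose added to the changes already present at the dose below it. All 14217 genes with a probe set of 1 gene symbol were compared, each through its brightest probe set, on the log2 signal scale. Differences are given as log2 611 minus 305.5 mg/kg ± SE, with n = 3 rats in each group, from a limma fit over all 17 arrays, and a gene is said to have risen or fallen only where its Benjamini-Hochberg adjusted p was under 0.05. The number of arrays limits the precision. A level on this scale can be compared between rats for 1 probe set, and not between genes.

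As background, most hepatocytes of an adult rat rest outside the cell cycle, and liver tissue holds few dividing cells until it is injured, resected or given a mitogen. When cells do divide, genes for cyclins, spindle checkpoint kinases, kinetochore proteins, mitotic kinesins and cytokinesis factors are transcribed together late in the cycle, after the genes for DNA synthesis. A second system relevant below is the ATF4 response, in which shortage of amino acids, stress of the endoplasmic reticulum or mitochondrial stress raises transcription of amino acid transporters, aminoacyl-tRNA synthetases and regulators such as Trib3 and Chac1.

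The arrays were alike in scale, with medians of 6.29 to 6.40, but that of 611 mg/kg rat 2 stood apart in RNA quality. Its GAPDH control signal was 2.89 higher on the log2 scale at the 3′ end of the transcript than at the 5′ end, against 0.93 to 1.56 on the other 16 arrays, and for actin the gap was 3.83 against 1.93 to 3.06. The main counts are given with and without this rat. Liver was the labelled tissue, and the albumin gene Alb, near the top of the measured range, read 15.35, 15.35 and 15.34 at 611 mg/kg and 15.35, 15.35 and 15.36 at 305.5 mg/kg. In whole liver, fewer cells of a type and less RNA per cell cannot be told apart.

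Of the 14217 genes, 41 (0.288%) rose and 5 (0.0352%) fell at 611 against 305.5 mg/kg, 46 (0.324%) in all. The rises were led by genes of cell division, and 18 of the 41 belonged to a list of genes of mitosis and cytokinesis. That list was chosen with earlier results of these data known. The falls were those of Chac1, an enzyme that degrades glutathione and a target of ATF4; Hbb, the beta chain of hemoglobin; Spata2L; Sh3gl2, an endophilin; and LOC100912629, annotated as a long noncoding RNA. Rises ranged from 0.46 to 2.41 on the log2 scale, which is 1.37-fold to 5.31-fold, with a median of 1.002. At an unadjusted p under 0.05 the counts were 1322 genes higher (9.30%) and 959 lower (6.75%), and the median difference over all genes was 0.01. All 46 called genes had groups that did not overlap, which held for 1591 genes (11.2%) upward and 1312 (9.23%) downward over the whole array. In 22 of the 46 genes the lower group's mean lay under log2 6, below the median of every array. That held for 3927 of all 14217 genes.

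The count of rises was 10 when rat 2 of 305.5 mg/kg was omitted, 11 when rat 3 of that dose was, and 71 when the omitted animal was 76.5 mg/kg rat 3, which contributes only to the estimate of spread. Without 611 mg/kg rat 2, the rat with the divergent RNA quality, 33 genes rose, 27 of them among the 41, and 1 fell. The count of falls was 1 without 611 mg/kg rat 2 or 3 or 305.5 mg/kg rat 2 or 3. It was 2 without 305.5 mg/kg rat 1, and 0 of those 2 were among the 5 reported. It was 2 or 3 without 153 mg/kg rat 2 or 3 or vehicle rat 1, 2, 3 or 5. With 611 mg/kg rat 1 omitted the count was 9, and with 76.5 mg/kg rat 3 omitted it was 10.

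**Figure D1:**
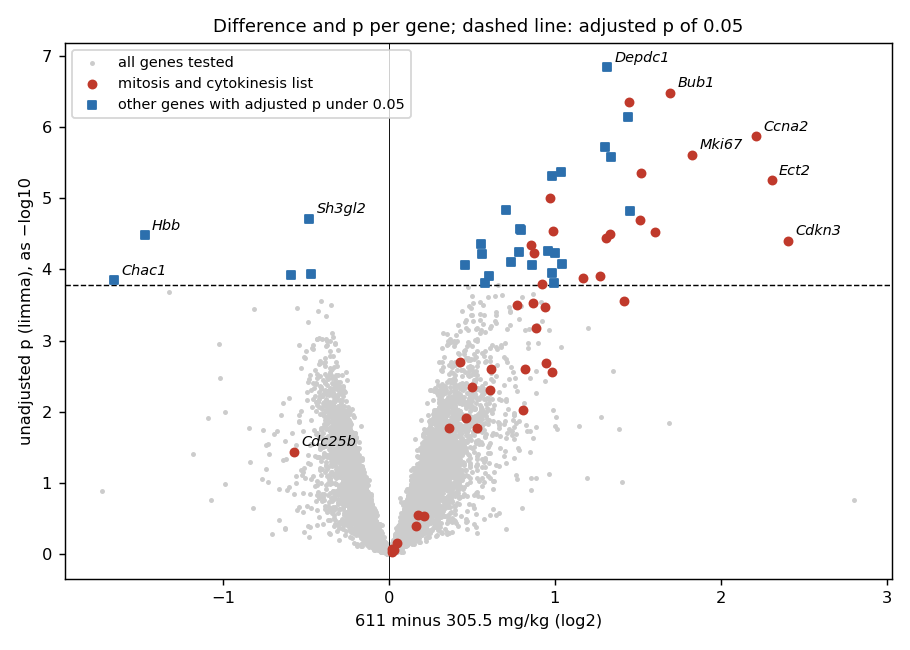
Difference at 611 minus 305.5 mg/kg (horizontal axis, log2) against the unadjusted limma p (vertical axis, −log10) for 14217 genes; the dashed line marks an adjusted p of 0.05. Circles are the 42 measured members of the mitosis and cytokinesis list, of which 18 lie above the line on the right, and squares are the other called genes.

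The mitosis and cytokinesis list was chosen with earlier results of these data known, so its counts are a description and not a test. It had 49 members, of which 42 were measured without any filter on signal. Of these, 18 rose, 0 fell and 24 did not pass the test, where 0.288% of all genes rose and 0.0352% fell. At an unadjusted p under 0.05, 34 were higher and 1 lower, beside 9.30% and 6.75% of all genes. The median difference of the 42 was 0.88, beside 0.01 for all genes tested. All 3 rats at 611 mg/kg lay above all 3 at 305.5 mg/kg for 31 of the 42, beside 11.2% of all genes. The median member had signals of 7.49, 6.62 and 6.61 in the rats at 611 mg/kg and of 6.31, 6.05 and 5.97 in the rats at 305.5 mg/kg. Thus every rat at 611 mg/kg lay above every rat at 305.5 mg/kg in this median, by the smallest margin between 611 mg/kg rat 3 and 305.5 mg/kg rat 1. The 611 mg/kg rats were unequal. Rat 1 had the highest signal of its group for 41 of the 42 members, against 4890 of all 14217 genes. Rat 2 had the lowest for 30, against 5657 of all genes. The count of members that rose was 19 without 611 mg/kg rat 2, 11 when 611 mg/kg rat 1 was left out, 4 with rat 2 of 305.5 mg/kg omitted and 6 with rat 3 of that dose omitted, and 17 without 3 arrays that an earlier analysis had set apart, those of 611 mg/kg rat 2 and of rats 2 and 3 at 76.5 mg/kg.

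Cyclins and regulators of the cyclin-dependent kinases were among the largest rises. Ccna2, cyclin A2, which drives S phase and entry into mitosis, read 7.54, 6.49 and 6.63 in the rats at 611 mg/kg, against 4.97, 4.26 and 4.78 at 305.5 mg/kg. Ccnb2, a B-type cyclin that partners Cdk1, read 8.83, 8.07 and 8.31 at 611 mg/kg and 6.99, 6.64 and 6.77 at 305.5 mg/kg. For both cyclins the groups were separate, with rat 1 highest in each. Cdkn3, a phosphatase that acts on cyclin-dependent kinases, had the largest rise of any gene called, with 10.10, 9.18 and 9.30 at 611 mg/kg and 7.60, 6.54 and 7.22 at 305.5 mg/kg. The rises were 2.22 ± 0.31 (adjusted p = 0.00388) for Ccna2, 1.60 ± 0.29 (adjusted p = 0.0202) for Ccnb2 and 2.41 ± 0.44 (adjusted p = 0.0225) for Cdkn3, which correspond to 4.65-fold, 3.04-fold and 5.31-fold. Leaving out 611 mg/kg rat 1 ended the call for Cdkn3 (adjusted p = 0.0553), as did leaving out rat 2 (0.165) or rat 3 (0.102) of 305.5 mg/kg, and Ccnb2 lost its call in the same omissions (0.0506, 0.155 and 0.102). Without 611 mg/kg rat 2 the rises were 2.58 for Cdkn3 (adjusted p = 0.0388), 2.41 for Ccna2 (0.0062) and 1.77 for Ccnb2 (0.0219). With the GAPDH covariate Cdkn3 and Ccnb2 were not called (0.0753 and 0.0605), nor was Cdkn3 without the 3 arrays set apart earlier (0.0549) or with robust eBayes (0.0590). Cdca3, an adaptor that promotes entry into mitosis, read 9.32, 8.20 and 8.35 at 611 mg/kg and 7.43, 6.78 and 7.11 at 305.5 mg/kg, a rise of 1.52 ± 0.26 (adjusted p = 0.017), which was not called without 305.5 mg/kg rat 2 (0.155) or rat 3 (0.0777). Cdk1, the mitotic kinase itself, named here after its values were seen, read 8.46, 6.94 and 7.50 at 611 mg/kg and 6.49, 6.11 and 6.05 at 305.5 mg/kg, and its difference of 1.42 did not pass (adjusted p = 0.0691).

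Bub1 and Spc24, of the spindle checkpoint and the kinetochore, had the smallest p-values of the list. Bub1, a kinase of the spindle checkpoint, read 6.54, 5.98 and 6.01 at 611 mg/kg and 4.63, 4.30 and 4.51 at 305.5 mg/kg, and the lowest rat at 611 mg/kg exceeded the highest at 305.5 mg/kg by more than the whole spread within either group. Spc24 and Spc25 encode a pair of subunits of the NDC80 complex, which holds microtubules at the kinetochore. Spc24 read 9.02, 8.34 and 8.47 at 611 mg/kg and 7.36, 7.06 and 7.05 at 305.5 mg/kg. Spc25 read 8.31, 7.51 and 7.32 at 611 mg/kg and 6.41, 5.98 and 6.19 at 305.5 mg/kg. The groups were separate for both subunits, again with rat 1 highest at 611 mg/kg. Bub1 rose by 1.70 ± 0.21 (adjusted p = 0.00214), Spc24 by 1.45 ± 0.18 (adjusted p = 0.00214) and Spc25 by 1.52 ± 0.23 (adjusted p = 0.00622). Spc25 lost its call without 305.5 mg/kg rat 2 (0.0600), whereas Bub1 and Spc24 kept theirs in every omission of a rat. The third NDC80 subunit measured, Nuf2, which was named after its values were seen, differed by 0.47 and did not pass (adjusted p = 0.214).

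Genes of the central spindle and of cytokinesis also rose. Ect2, an exchange factor needed to form the contractile ring, read 8.49, 7.89 and 7.34 at 611 mg/kg and 6.27, 5.16 and 5.37 at 305.5 mg/kg, a rise of 2.31 ± 0.36 (adjusted p = 0.0066) or 4.95-fold. Kif20a, a kinesin of the central spindle, read 8.62, 7.52 and 7.71 at 611 mg/kg and 6.90, 6.45 and 6.57 at 305.5 mg/kg, a rise of 1.31 ± 0.24 (adjusted p = 0.0218). Hmmr, a microtubule-associated protein of the spindle, read 7.55, 6.37 and 6.86 at 611 mg/kg and 5.65, 5.40 and 5.73 at 305.5 mg/kg, a rise of 1.33 ± 0.24 (adjusted p = 0.0203). The groups did not overlap for any of these 3 genes. Without 305.5 mg/kg rat 2 the adjusted p was 0.0734 for Ect2, 0.160 for Kif20a and 0.157 for Hmmr, without rat 3 of that dose 0.0603, 0.123 and 0.0713, and for Hmmr without rat 1 of that dose 0.0530. Hmmr has another, dimmer probe set, which differed by 0.10, and the mean of both differed by 0.72 and did not pass (adjusted p = 0.0646).

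Mki67, which encodes the proliferation marker Ki-67 that coats mitotic chromosomes, read 7.78, 7.28 and 6.61 at 611 mg/kg and 5.80, 5.09 and 5.31 at 305.5 mg/kg. Its rise was 1.83 ± 0.27 (adjusted p = 0.00475), or 3.55-fold, and it was called in every omission of a rat. When only the rats at 611 and 305.5 mg/kg were fitted, Mki67 was not called (adjusted p = 0.0707), and neither were Arhgap11a (0.0707), Ect2 (0.0518), Spc25 (0.0762), Cdca3 (0.141), Pclaf (0.141), Hmmr (0.141), Kif20a (0.153), Hbb (0.110) or the 3 smaller falls. The remaining members of the list that rose, given to complete the set, were Kif20b by 0.97, Kif11, the motor that separates spindle poles, by 0.93, Racgap1, the partner of Ect2 in the central spindle, by 1.27, Prc1, which bundles central spindle microtubules, by 1.17, Nusap1 by 0.86, Birc5, the survivin subunit of the chromosomal passenger complex, by 0.88, and the kinase gene Pbk by 0.99 (adjusted p from 0.0108 to 0.0492). The other, dimmer probe sets of Kif11, Racgap1 and Nusap1 differed by 0.10, 0.32 and 0.81. Members that did not pass ran from Cdc25b, a phosphatase that activates Cdk1, at −0.57 (adjusted p = 0.285), to Cdk1 at 1.42. Among them were the kinase genes Plk1 at 0.17 and Aurka at 0.89, and Foxm1, a transcription factor of mitotic genes, at 0.18 (adjusted p = 0.689, 0.094 and 0.594); these were named after their values were seen.

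**Figure D2:**
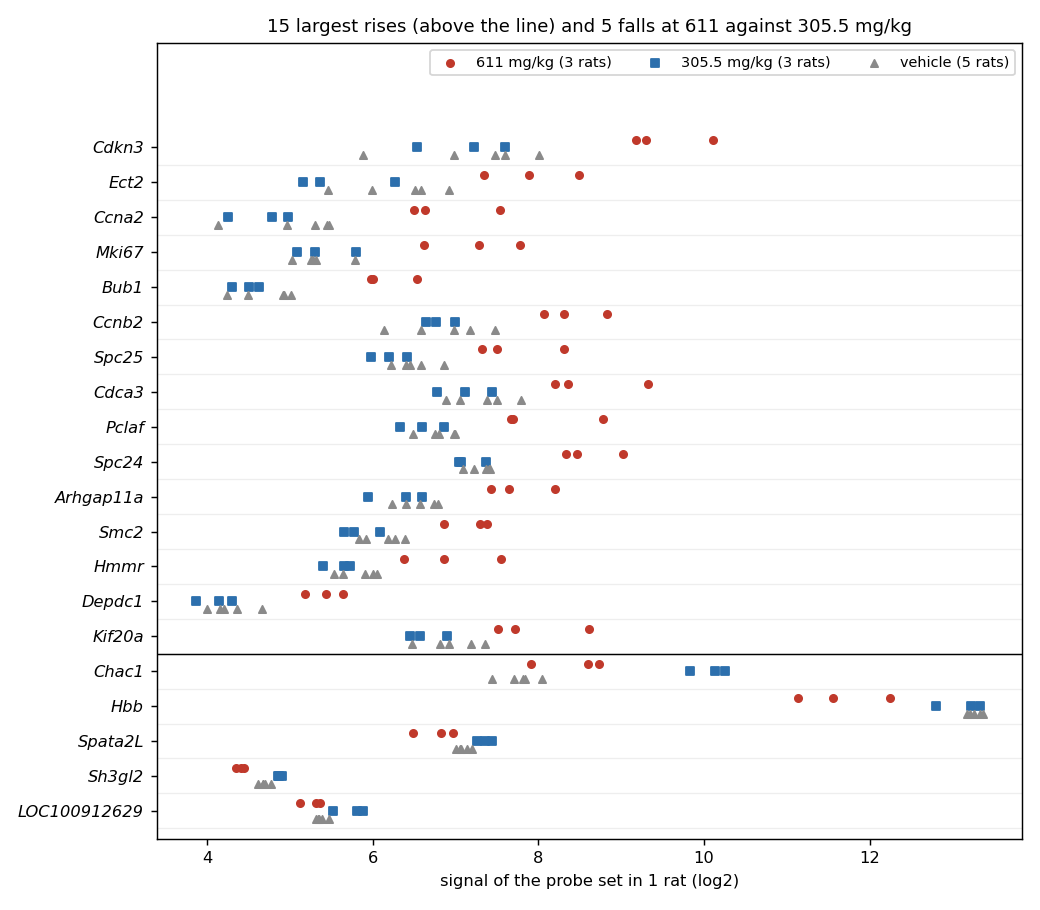
Signal in each rat (horizontal axis, log2) of the 15 genes with the largest rise, above the black line, and of the 5 genes that fell, beneath it. In each of the 20 genes the 3 rats at 611 mg/kg (circles) lie apart from the 3 at 305.5 mg/kg (squares), and in the 15 rises all 3 also lie above the 5 vehicle rats (triangles).

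Promoter sequences of the rising mitosis genes were searched because the genes moved together and because the mitotic program in human and mouse cells is known to use a pair of short elements: the cell cycle genes homology region (CHR), bound by the MuvB complexes, and the CCAAT box, bound by NF-Y. The searched letters were TTTGAA for the CHR and CCAAT for the CCAAT box, on both strands, within 300 bases of RefSeq promoter sequence (build GRCr8, 250 bases before to 50 after the annotated start). A promoter was in the table for 15 of the 18 genes. In 10 of these 15 (66.7%) the window held TTTGAA, in 14 (93.3%) CCAAT and in 10 (66.7%) both. Among the 24 other measured members of the list, 20 had a promoter, of which 13 (65%) held TTTGAA, 14 (70%) CCAAT and 10 (50%) both. The 23 genes that rose outside the list included 20 with a promoter. TTTGAA was held by 8 of these 20 (40%), CCAAT by 12 (60%) and both by 3 (15%). Over the 11733 tested genes with a promoter, the shares were 12.3%, 37.3% and 5.02%, and over all 27457 promoters of the table they were 18.1%, 37.7% and 7.25%. A match of letters is a description of the window and not evidence of a bound site.

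The 4 rising genes of the list whose last 100 bases before the start held both motifs are shown, 5′ to 3′ on the gene's strand, to let the arrangement be seen. Capitals mark TTTGAA and CCAAT or their reverse complements. The stretches are chr1:199952594-199952693 (minus strand) for Mki67, chr8:79981659-79981758 (minus strand) for Ccnb2, chr10:25665216-25665315 (minus strand) for Hmmr and chr1:143659381-143659480 (plus strand) for Prc1, all GRCr8.
Mki67: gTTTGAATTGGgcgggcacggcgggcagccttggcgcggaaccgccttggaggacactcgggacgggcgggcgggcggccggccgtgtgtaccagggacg
Ccnb2: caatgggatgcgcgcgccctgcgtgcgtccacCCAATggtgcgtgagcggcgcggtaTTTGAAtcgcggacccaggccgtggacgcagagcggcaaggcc
Hmmr: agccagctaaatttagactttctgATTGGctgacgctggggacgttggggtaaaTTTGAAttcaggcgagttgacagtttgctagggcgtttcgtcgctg
Prc1: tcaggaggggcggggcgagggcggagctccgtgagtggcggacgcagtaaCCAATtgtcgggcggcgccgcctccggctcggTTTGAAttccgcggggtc
In Ccnb2, Hmmr and Prc1 the CCAAT box came first, at 68, 76 and 50 bases before the start, and the CHR lay nearer the start, at 43, 46 and 18 bases before it. In Mki67 the motifs shared 1 base, at 99 bases before the start for the CHR and 94 for the CCAAT box.

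Outside the mitosis list 23 genes rose. The largest rises were Pclaf, Arhgap11a, Smc2 and Depdc1. Pclaf, a factor that binds the replication clamp PCNA, read 8.78, 7.69 and 7.67 at 611 mg/kg and 6.86, 6.33 and 6.59 at 305.5 mg/kg, a rise of 1.45 ± 0.24 (adjusted p = 0.0145), not called without 305.5 mg/kg rat 2 (0.142) or rat 3 (0.0713). Arhgap11a read 8.20, 7.65 and 7.43 at 611 mg/kg and 6.59, 5.94 and 6.41 at 305.5 mg/kg, a rise of 1.44 ± 0.19 (adjusted p = 0.00256). Smc2, a core subunit of the condensin complexes that compact chromosomes, read 7.30, 7.38 and 6.87 at 611 mg/kg and 6.09, 5.78 and 5.65 at 305.5 mg/kg, a rise of 1.34 ± 0.20 (adjusted p = 0.00475). Depdc1 read 5.44, 5.64 and 5.18 at 611 mg/kg and 4.30, 3.87 and 4.14 at 305.5 mg/kg, a rise of 1.32 ± 0.15 (adjusted p = 0.00205) and the smallest p of all genes. Both groups lay under log2 6 for Depdc1. All 4 had separate groups, and in Smc2 and Depdc1 rat 2 rather than rat 1 was highest at 611 mg/kg.

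The other genes that rose outside the list, given to complete the set, included the centromere protein genes Cenpw by 1.04, Cenpn by 0.79 and Cenpk by 0.78, the kinetochore gene Knstrn by 2-fold, the centriole duplication kinase Plk4 by 0.74, the mitotic kinesin Kif15 by 0.58, the spindle pole gene Aspm by 0.99 and the microtubule destabilizer Stmn1 by 1.05. Shcbp1 rose by 0.98, with 0.18 in its other, dimmer probe set, Trim59 by 1.30 and Zfp367 by 0.79. Mnd1, a meiotic recombination gene, rose by 0.86, Nmi, an interferon-inducible protein gene, by 0.56, and Tusc3, a subunit of the oligosaccharyltransferase, by 0.98. Tbc1d31, Abhd15, Ppig and the pseudogene Zfp273l-ps1 rose by 0.96, 0.46, 0.56 and 0.61 (adjusted p of all 23 from 0.00205 to 0.0492). Among these 23 genes, 611 mg/kg rat 2 had the highest signal of its group for 15 and rat 1 for 8. Over all 14217 genes, rat 2 was highest for 5676 and rat 1 for 4890. Of the mitosis list members that rose, rat 1 was highest for all 18. The array of rat 2 was the one with the divergent RNA quality. With the GAPDH gap of each array as a covariate in the fit, 19 genes rose, all of them among the 41, and 10 of them were mitosis list members.

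Of the DNA synthesis genes, which act earlier in the cycle, Rrm1 was the member that rose. Of 34 measured members of the DNA replication and S phase list, 1 rose, 0 fell and 33 did not pass, with a median difference of 0.20. At an unadjusted p under 0.05, 15 were higher and 0 lower, beside 9.30% and 6.75% of all genes. Rrm1, the large subunit of ribonucleotide reductase, read 8.41, 8.44 and 8.28 at 611 mg/kg and 7.76, 7.57 and 7.67 at 305.5 mg/kg, a rise of 0.71 ± 0.12 (adjusted p = 0.0145) with narrow spread in both groups. Prim1, the primase subunit, differed by 0.64 (adjusted p = 0.0635), Tk1, thymidine kinase, by 0.51 (0.0697), and Mcm6, a subunit of the replicative helicase, by 0.73 (0.0737). For these 3 genes, named for small p in their list, the groups did not overlap either. All rats at 611 mg/kg lay above all rats at 305.5 mg/kg for 14 of the 34 members, beside 11.2% of all genes. The count of members called was 0 without 305.5 mg/kg rat 2 or rat 3, 2 without 611 mg/kg rat 2 or 76.5 mg/kg rat 1 or 2, and 3 without 76.5 mg/kg rat 3 or without the 3 arrays set apart earlier. Whether the mitosis and replication lists differ from each other was not tested.

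The genes that rose were also followed over the whole dose series. Mki67 averaged 5.33 in vehicle rats and 5.43, 5.50, 5.40 and 7.23 at 76.5, 153, 305.5 and 611 mg/kg, with an SD of 0.58 (n = 3) at the highest dose and 0.28 (n = 5) in vehicle. Ccnb2 followed the same course at 6.87, 6.74, 6.68, 6.80 and 8.40. Of the 41 genes that rose, 39 had all 3 rats at 611 mg/kg above the range of the 5 vehicle rats (all but Ppig and Tusc3), beside 1631 of all 14217 genes (11.5%). The 305.5 mg/kg mean lay inside the vehicle range for 32 of the 41 (78%), beside 9076 of all genes (63.8%). In comparisons with vehicle, which share the 611 or 305.5 mg/kg rats with the main difference, 40 of the 41 passed at 611 mg/kg (all but Ppig; background 5.04% of genes higher and 2.42% lower) and 1, Mnd1, at 305.5 mg/kg (background 0.753% higher and 1.47% lower).

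Whether the last step differed from the step before it was tested for each gene as 611 minus 305.5 mg/kg less 305.5 minus 153 mg/kg. No gene passed (0%, limma), 2113 genes (14.9%) had an unadjusted p under 0.05, and the smallest adjusted p was 0.0839. The count was 1 without 305.5 mg/kg rat 1, without 76.5 mg/kg rat 3 or without the 3 arrays set apart earlier, and 573 with array weights. Positive step differences with the smallest p were those of Ppig, a cyclophilin (1.06), Depdc1 (1.58), Zfp367 (1.34), Smc2 (1.79) and Bub1 (1.89). In all 5 the 305.5 mg/kg mean also lay below the 153 mg/kg mean, by 0.19 in Bub1 to 0.54 in Zfp367, and both steps share the 305.5 mg/kg rats. Negative ones were Sh3gl2 (−0.84), LOC100912629 (−0.88), Ttf2 (−0.79), Klrc1 (−0.70) and Nrg1 (−0.78). Between 305.5 and 153 mg/kg no gene was called (0% in either direction, with 1338 at an unadjusted p under 0.05).

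**Figure D3:**
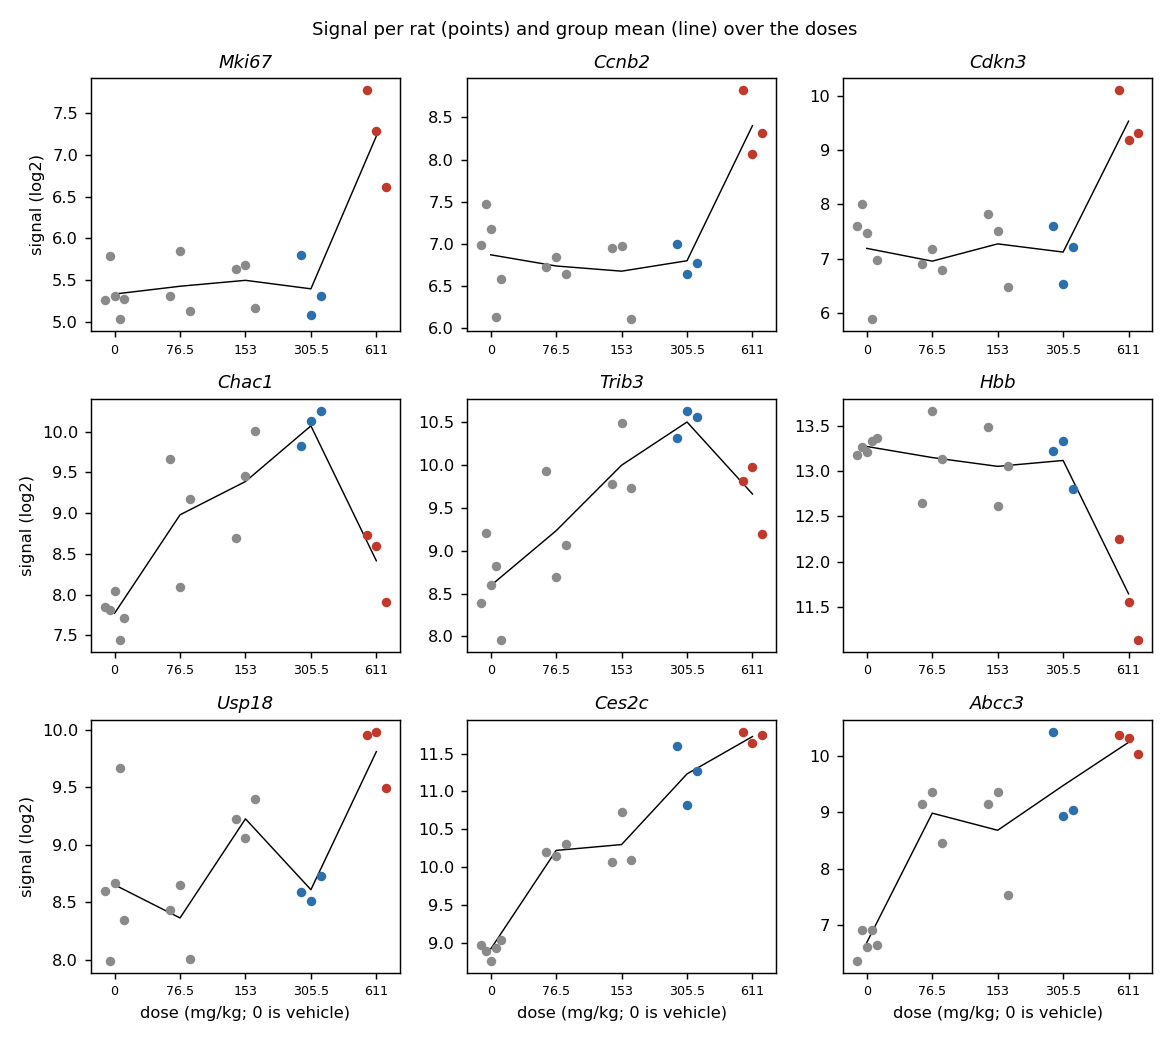
Signal per rat (points, log2) and group mean (line) of 9 genes over the doses in mg/kg, with vehicle at 0 and rats at 611 mg/kg on the right of each panel. Mki67, Ccnb2 and Cdkn3 lie apart at 611 mg/kg only, Chac1 and Trib3 have their highest mean at 305.5 mg/kg, Hbb is lowest at 611 mg/kg, and the highest mean of Ces2c and Abcc3 is at 611 mg/kg.

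Chac1 was the member of the ATF4 response list that fell. Of 34 measured members, 1 fell, 0 rose and 33 did not pass, with 27 of 34 differences below 0 and a median of −0.18. At an unadjusted p under 0.05, 7 were lower and 1 higher, beside 6.75% and 9.30% of all genes. Chac1 read 8.73, 8.60 and 7.91 at 611 mg/kg and 9.83, 10.13 and 10.25 at 305.5 mg/kg, and fell by 1.66 ± 0.34 (adjusted p = 0.0467). The 3 rats at 305.5 mg/kg lay above all 3 at 611 mg/kg. Over the doses its mean was 7.77 in vehicle rats and 8.98, 9.39, 10.07 and 8.41 at 76.5, 153, 305.5 and 611 mg/kg, so its highest mean was at 305.5 mg/kg. Against vehicle Chac1 differed by 0.64 at 611 mg/kg (adjusted p = 0.206) and by 2.30 at 305.5 mg/kg (adjusted p = 0.000557). The call for the fall was lost in 16 of 28 alternatives, among them the omission of 611 mg/kg rat 2 (adjusted p = 0.102) or rat 3 (0.144), of any rat at 305.5 mg/kg (0.0644, 0.229 and 0.219 for rats 1, 2 and 3), of vehicle rats 1, 2, 3 or 5 (0.0600 to 0.0708) and of 153 mg/kg rat 2 (0.0691), with differences from −1.95 to −1.40 throughout.

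Other ATF4 targets did not pass the test between the doses. Trib3, a pseudokinase that restrains ATF4, read 9.82, 9.98 and 9.19 at 611 mg/kg and 10.31, 10.63 and 10.56 at 305.5 mg/kg, a difference of −0.84 (adjusted p = 0.231). Mthfd2, an enzyme of mitochondrial folate metabolism, read 7.68, 7.79 and 7.45 at 611 mg/kg and 7.98, 8.62 and 8.28 at 305.5 mg/kg, a difference of −0.65 (0.211). Slc7a5, a transporter of large neutral amino acids, read 6.95, 6.65 and 7.19 at 611 mg/kg and 7.48, 7.45 and 7.67 at 305.5 mg/kg, a difference of −0.60 (0.188). In each of the 3 genes, named for small p in their list, all rats at 611 mg/kg lay below all rats at 305.5 mg/kg. That held for 9 of the 34 members, beside 9.23% of all genes, and 3 members had all rats above (11.2% of all genes). Against vehicle, Trib3 differed by 1.07 at 611 mg/kg (adjusted p = 0.0298) and by 1.91 at 305.5 mg/kg (0.00154), Mthfd2 by 0.39 (0.250) and 1.04 (0.0101), and Slc7a5 by 0.08 (0.814) and 0.68 (0.0486).

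Hemoglobin transcripts, which in adult liver come mostly from blood in the tissue, gave 1 fall, that of Hbb. Hbb, whose x_at probe set can bind related globin transcripts so that the signal may not be that of Hbb alone, read 12.25, 11.56 and 11.13 at 611 mg/kg and 13.22, 13.33 and 12.80 at 305.5 mg/kg, and fell by 1.47 ± 0.26 (adjusted p = 0.0203), with vehicle rats at 13.18 to 13.37. The alpha globin gene Hba-a3 read 10.92, 10.37 and 10.18 at 611 mg/kg and 11.92, 12.17 and 11.35 at 305.5 mg/kg, a difference of −1.32 (adjusted p = 0.0603). Alas2, the heme synthesis enzyme of red cell precursors, read 7.25, 6.77 and 6.48 at 611 mg/kg and 7.75, 8.23 and 7.59 at 305.5 mg/kg, a difference of −1.02 (0.113). In all 3 genes the groups were separate, with the rats at 611 mg/kg below, which held for 9.23% of all genes. Of the 6 measured red cell markers 1 fell, 0 rose and 5 did not pass. All 6 differences were below 0, from −1.47 to −0.19 with a median of −0.26. At an unadjusted p under 0.05, 2 of the 6 were lower, beside 6.75% of all genes. The summed signal of the list lay between 11.4 and 12.4 at 611 mg/kg and between 12.9 and 13.4 at 305.5 mg/kg, on the log2 scale. This sum is taken on the linear scale, gives most weight to the brightest markers and lay close to the signal of Hbb. Hbb was not called without 611 mg/kg rat 2 (adjusted p = 0.0862) or rat 3 (0.0782), or without 305.5 mg/kg rat 1 (0.0617) or rat 2 (0.157), nor with the GAPDH covariate (0.0605) or with only the rats at 611 and 305.5 mg/kg in the fit (0.110). What the lower globin signal came from was not tested.

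The other 3 falls were small. Spata2L read 6.97, 6.49 and 6.82 at 611 mg/kg and 7.25, 7.45 and 7.35 at 305.5 mg/kg, and fell by 0.59 ± 0.12 (adjusted p = 0.0433). Sh3gl2 read 4.35, 4.41 and 4.44 at 611 mg/kg and 4.91, 4.87 and 4.86 at 305.5 mg/kg, and fell by 0.48 ± 0.08 (adjusted p = 0.017). LOC100912629 read 5.32, 5.12 and 5.37 at 611 mg/kg and 5.81, 5.52 and 5.88 at 305.5 mg/kg, and fell by 0.47 ± 0.09 (adjusted p = 0.0433). For all 3 the 305.5 mg/kg mean was the highest of the 5 groups, at 7.35, 4.88 and 5.74, with vehicle means of 7.09, 4.69 and 5.37. Sh3gl2 and LOC100912629 lay under log2 6 in both groups. Sh3gl2 was not called in 5 of 27 alternatives, including the omission of 305.5 mg/kg rat 1 (adjusted p = 0.0530), rat 2 (0.0929) or rat 3 (0.0713). Spata2L was not called in 17 of 28 alternatives, including the omission of rat 2 or 3 of 611 mg/kg, any rat of 305.5 mg/kg, rat 2 or 3 of 153 mg/kg or vehicle rat 1, 2, 3 or 5 (adjusted p from 0.0549 to 0.251). LOC100912629 was not called in 18 of 27, including the omission of any rat of 611 or 153 mg/kg, rat 1 or 3 of 305.5 mg/kg, rat 1 of 76.5 mg/kg or vehicle rat 1, 2, 3 or 5 (adjusted p from 0.0506 to 0.219).

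The next smallest p-values among lower genes, none of which passed, were those of Hba-a3, Ttf2, Krt6c, Cdca5, Foxa3, Nrg1, Hdac7, SIRT2, Csrnp3 and Klrc1. Foxa3, a forkhead factor of hepatocytes, read 8.64, 8.21 and 8.37 at 611 mg/kg and 8.96, 9.27 and 9.43 at 305.5 mg/kg, a difference of −0.81 (adjusted p = 0.0708), with vehicle rats at 9.33 to 9.76. Cdca5, sororin, which protects sister chromatid cohesion, read 4.83, 4.70 and 4.91 at 611 mg/kg and 5.33, 5.26 and 5.51 at 305.5 mg/kg, a difference of −0.56 (0.0697), opposite in sign to 41 of the 42 mitosis list members. Both groups lay under log2 6 for Cdca5. In Ttf2, Krt6c, Nrg1, Hdac7, SIRT2, Csrnp3 and Klrc1 the differences were −0.41, −0.35, −0.43, −0.38, −0.48, −0.34 and −0.33, with adjusted p from 0.0691 to 0.11.

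Interferon response genes had mostly positive differences, and none passed the test. Of 28 measured members 0 rose and 0 fell, and the median difference was 0.42 with 26 of 28 above 0. At an unadjusted p under 0.05, 14 were higher and 0 lower, beside 9.30% and 6.75% of all genes. Usp18, a protease that removes ISG15, read 9.96, 9.98 and 9.49 at 611 mg/kg and 8.59, 8.51 and 8.73 at 305.5 mg/kg, a difference of 1.20 (adjusted p = 0.094). The vehicle rats spread over 7.99 to 9.67, a range that held all 3 rats at 305.5 mg/kg and 611 mg/kg rat 3. Herc6, an E3 ligase for ISG15 in mice, differed by 1.04 (0.114), the antiviral GTPase gene Mx1 by 0.89 (0.157) and the guanylate-binding protein gene Gbp2 by 0.66 (0.181). For these 4 genes, named for the smallest p of their list, all rats at 611 mg/kg lay above all rats at 305.5 mg/kg. That held for 14 of the 28 members, beside 11.2% of all genes, and 1 member had all rats below.

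Genes of cholesterol synthesis and uptake showed 0 calls among 24 measured, 23 differences above 0 and a median of 0.33. At an unadjusted p under 0.05, 1 was higher and 0 lower, beside 9.30% and 6.75% of all genes. All rats at 611 mg/kg lay above all rats at 305.5 mg/kg for 3 of the 24, beside 11.2% of all genes. The mean signal of the list was 10.05, 10.58 and 10.65 in the rats at 305.5 mg/kg, and 10.66 to 10.80 at 611 mg/kg. Tm7sf2, a sterol reductase, read 11.39, 11.63 and 11.86 at 611 mg/kg and 10.81, 11.26 and 11.26 at 305.5 mg/kg, a difference of 0.52 (adjusted p = 0.18). Cyp51, the lanosterol demethylase, differed by 0.39 (0.342). The proteasome list had 0 calls among 35, 32 differences above 0 and a median of 0.13, led by Psmd14, a deubiquitinating subunit, at 0.38 (0.174). Of all 14217 genes, 7464 had a difference above 0.

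The drug-metabolising genes named here were not called between the doses, and only Ces2c is given against vehicle. CAR and PXR are nuclear receptors that sense drugs and other foreign compounds; of 22 measured genes in their list, 0 rose or fell, 17 differences lay above 0 and the median was 0.09. Ces2c, a carboxylesterase, read 11.79, 11.64 and 11.75 at 611 mg/kg and 11.60, 10.82 and 11.27 at 305.5 mg/kg, a difference of 0.49 (adjusted p = 0.211). Against vehicle it differed by 2.80 at 611 mg/kg and by 2.31 at 305.5 mg/kg. Abcc3, an exporter of organic anions, read 10.38, 10.32 and 10.03 at 611 mg/kg and 10.43, 8.94 and 9.05 at 305.5 mg/kg; its groups overlapped because 305.5 mg/kg rat 1 was as high as the rats at 611 mg/kg (difference 0.77, adjusted p = 0.361). Alas1, the rate-limiting enzyme of hepatic heme synthesis, read 11.50, 11.19 and 11.02 at 611 mg/kg and 10.68, 10.59 and 10.77 at 305.5 mg/kg, a difference of 0.56 (0.124). In Ces2c and Alas1 all rats at 611 mg/kg lay above all rats at 305.5 mg/kg. That held for 3 of the 22 members of the CAR and PXR list, beside 11.2% of all genes. Gsta3, a glutathione transferase of the NRF2 list, differed by 0.99 (0.205), and Cyp1a1, the classic target of the aryl hydrocarbon receptor, read 6.87, 6.62 and 8.85 at 611 mg/kg and 6.48, 5.96 and 6.87 at 305.5 mg/kg, with 611 mg/kg rat 3 alone far above the others.

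Across the 38 pathway lists, calls fell in 3 of them: mitosis and cytokinesis, DNA replication, and ATF4. The lists of p53 targets, PPARA targets, the circadian clock, bile acids, the unfolded protein response, phase 1 cytochromes P450, complement and coagulation and the rest had 0 calls. Apart from the interferon and cholesterol lists, the medians of the lists with 0 calls lay between −0.07 and 0.17. In the p53 list Mdm2, the ubiquitin ligase of p53, differed by 0.34 (adjusted p = 0.278) and Ccng1, cyclin G1, by 0.47 (0.236). At an unadjusted p under 0.05, 3 of its 15 measured members were higher and 1 lower, beside 9.30% and 6.75% of all genes. In the PPARA list Angptl4, an inhibitor of lipoprotein lipase, differed by 0.88 (0.182), the largest positive difference of that list. At an unadjusted p under 0.05, 1 of the 44 measured PPARA members was higher and 3 were lower. In the clock list Npas2, a partner of the core clock, differed by −0.42 (0.3).

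**Figure D4:**
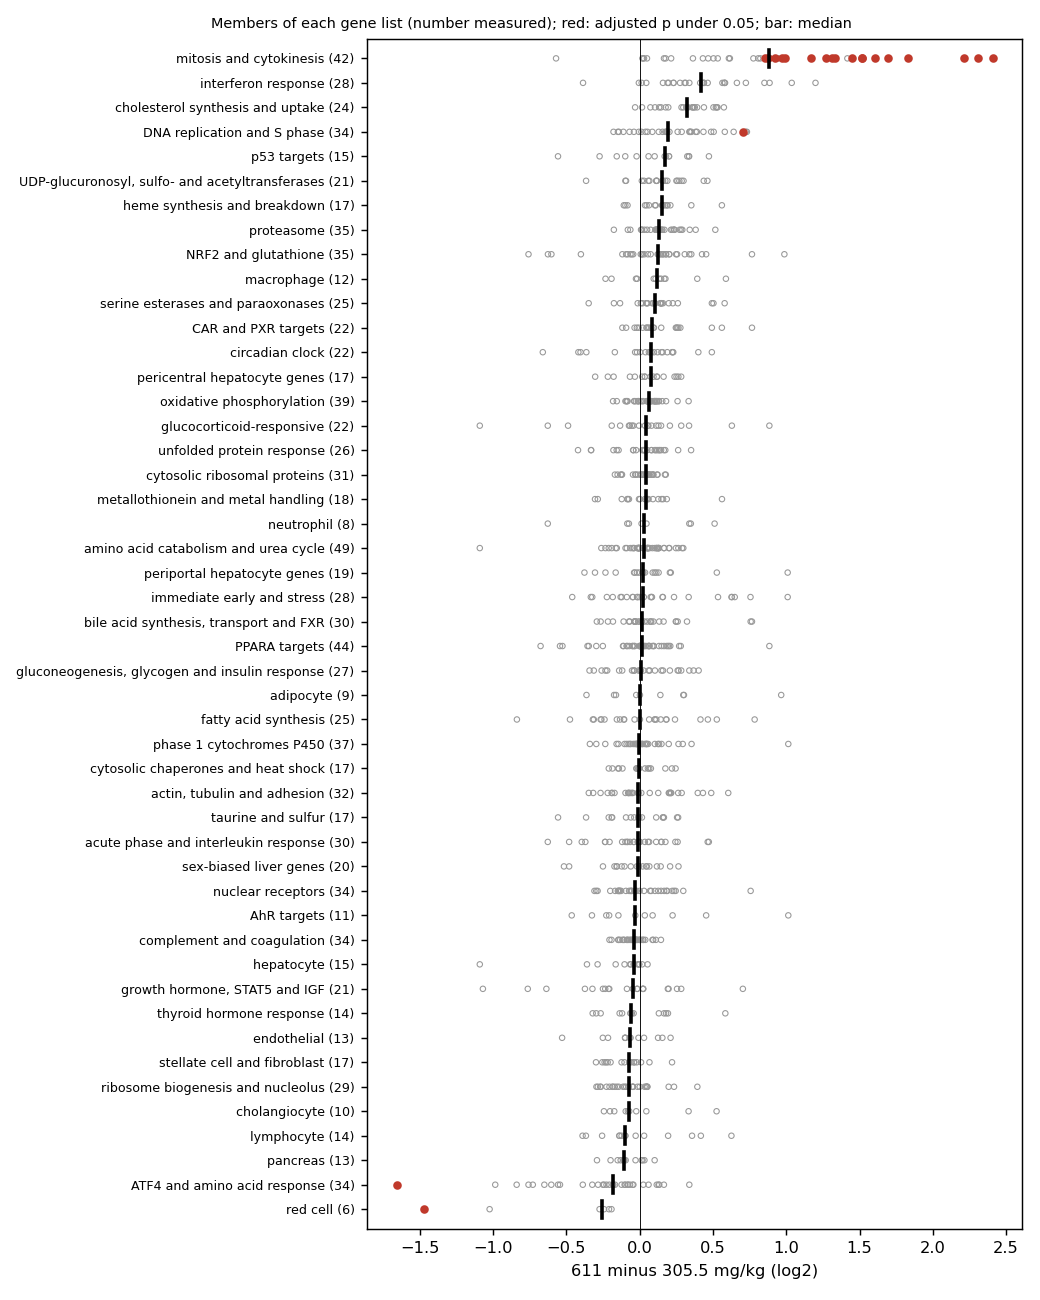
Difference at 611 minus 305.5 mg/kg (horizontal axis, log2) of every measured member of 48 gene lists, ordered by median from the top (number measured in brackets); filled points passed the test and bars are medians. The mitosis and cytokinesis list has the highest median, 0.88, and the red cell list the lowest, −0.26.

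Markers of the cell types that liver can hold gave 1 call, the fall of Hbb, among 10 lists. The summed signal of the 15 hepatocyte markers lay between 17.99 and 18.10 at 611 mg/kg and between 18.05 and 18.13 at 305.5 mg/kg, so the groups overlapped. This sum is taken on the linear scale and gives most weight to the brightest markers. Of the 15 differences, 2 lay above 0 and 13 below, beside 7464 and 6753 of all 14217 genes. They ran from −1.09 to 0.05 with a median of −0.04, and 2 were lower at an unadjusted p under 0.05. For the 12 macrophage markers the ranges were 13.5 to 13.8 at 611 mg/kg and 13.4 to 13.7 at 305.5 mg/kg, with 8 differences above 0, 4 below and a median of 0.12. They ran from −0.23 in Lyz2, named after its values were seen, to 0.59 in Aif1. Aif1 read 8.68, 8.50 and 8.26 at 611 mg/kg and 7.85, 8.01 and 7.81 at 305.5 mg/kg, which did not pass (adjusted p = 0.141). Of the 14 lymphocyte markers, 5 differences lay above 0 and 9 below, from −0.39 in Cd79b to 0.63 in Ptprc, the pan-leukocyte antigen CD45 (adjusted p = 0.194 and 0.149), with a median of −0.10. Of the 13 endothelial markers, 4 differences lay above 0 and 9 below, with a median of −0.07. Among them Stab2, a scavenger receptor of sinusoidal endothelium, differed by −0.53 (0.149). Of the 17 stellate cell and fibroblast markers, 3 differences lay above 0 and 14 below, with a median of −0.07. Which cells carried the mitotic transcripts cannot be read from whole liver, and the part of changed cell makeup in the rises was not tested.

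Where a called gene had further probe sets, they ran in the same direction. Of the 46 genes, 10 had more than 1 probe set, and all 11 additional probe sets differed in the direction of the brightest, 1 of them with a call of its own. Their sizes varied. The additional probe sets of Hmmr, Kif11, Shcbp1 and Racgap1 differed by only 0.10, 0.10, 0.18 and 0.32. Those of Cenpw, Nusap1, Nmi and Knstrn differed by 1.61, 0.81, 0.67 and 0.58. That of Sh3gl2 differed by −0.28, and those of Spata2L by −0.27 and −0.21. Bub1, Ccna2, Depdc1, Smc2 and Spc24 kept their calls under every alternative tried for them, with the smallest difference under any of them 1.52, 1.89, 1.19, 1.19 and 1.25 in that order of genes.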

How the data were processed

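The deposited values are RMA signals on the log2 scale, 1 column per rat, per the submitters' processing notes; the RMA software version is not given in the sources used here, and the values were used as deposited. RMA fits probe sets over all arrays and normalizes quantiles, so a shift common to all genes of an array would be removed. Of 31099 probe sets, 57 controls, 9780 with no symbol and 436 with several were left out. The 20826 with 1 symbol gave 14217 genes, each by its brightest probe set (4525 had several). Probe set symbols came from the platform annotation, of which 20758 matched RefSeq by gene ID.

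Groups followed the labels. limma 3.58.1 in R 4.3.3 (lmFit, eBayes with trend) was fitted to 5 groups over 17 arrays, leaving 12 residual degrees of freedom, with Benjamini-Hochberg adjustment over all genes and a threshold of 0.05. The p-values measure the spread between rats. The fit was tested on simulated data. Genes named were the 15 largest rises and the falls among called genes whose groups did not overlap. The falls were filled to 15 with the next smallest p among lower genes not called, with no condition on overlap. Also named were the 5 smallest p each way of the step difference and the 4 smallest p of each list. Others are marked as chosen after their values were seen or given to complete a set. The members and lists (48, with 1142 of 1325 entries measured) were chosen with earlier results of these data known. Alternatives covered probe set choice, filtering, scaling, weights, blocking, the arrays used and thresholds.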

Additional observations from a re-analysis of the deposited data

Results flagged for a closer look

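Among the 32 genes named by rule and examined for a rat far from its group, 1 stood out. Csrnp3 read 5.09 in vehicle rat 1, against 4.91 to 4.95 in the 4 other vehicle rats, a gap of 0.744 of the group's range where 0.71 is the 95% limit for 5 samples. Chance gives about 1 such result in 20 groups. The vehicle rats do not enter the difference between 611 and 305.5 mg/kg, for which Csrnp3 was not called.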

How the results depend on the processing

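No result changed direction under any alternative. The reported counts were 41 higher, 5 lower, 0 for the step difference and 18 mitosis members. With every probe set tested, 2 were lower. Without the dimmest 40% of genes the counts were 12 higher, 1 lower and 7 mitosis members. Array weights gave 259 higher, 74 lower, 573 for the step difference and 30 mitosis members. Fitting only the groups in the contrast gave 11 higher, 1 lower and 5 mitosis members. Without the arrays of 611 mg/kg rat 2 and of rats 2 and 3 at 76.5 mg/kg, 2 were lower and 1 passed for the step difference. With the GAPDH 3′ to 5′ gap as a covariate, 19 were higher, 1 lower and 10 were mitosis members. At an adjusted p under 0.01 the counts were 12, 0 and 6 mitosis members, at 0.10 they were 99, 14 and 3 for the step difference, and with a log2 change of at least 1 they were 21 and 2. Omitting 1 rat at a time gave 10 to 71 higher, 1 to 10 lower, 0 to 1 for the step difference, 4 to 21 mitosis members and 0 to 3 DNA replication members. Rats with the same number did not deviate together (r = −0.23, −0.23 and 0.08), so the numbers were not read as pairs; with the replicate block 48 were higher and 2 lower. The cause of these shifts was not tested. Precision is limited by 3 rats a group and, for 22 of the 46 called genes, by a lower group mean under log2 6.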
